A study of Mus musculus with 6 samples.

Results

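The semaphorins, plexins and neuropilins form 1 signalling family of guidance cues and receptors, and their messenger levels were examined in whole mouse aorta with and without endothelial Jagged1. Members were the protein-coding genes whose symbol begins with Sema or Plxn, together with Nrp1 and Nrp2. This gave 31 of the 35275 genes in the deposited table, of which 20 are semaphorins, 9 are plexins and 2 are neuropilins. Aortas came from 3 libraries of the genotype Wild-type and 3 of the genotype EC-Jag1KO, in which the Notch ligand gene Jag1 is deleted in endothelial cells, mature ones according to the series title. Strain, age, sex, the Cre driver and the way deletion was induced are not stated in the labels. Nothing there says that each library is from its own animal, and p-values thus describe the spread among these libraries, which may in part be technical. Each group held libraries of both sexes by their expression, so that neither group came from 1 animal.

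Semaphorins are secreted or membrane-bound ligands that share a sema domain and were first known for steering axons. Plexins are their signalling receptors, whose intracellular part acts on small GTPases of the Ras and Rap type. Neuropilins have short intracellular tails and serve as ligand-binding partners of plexins for most secreted class 3 semaphorins, and also as co-receptors for vascular endothelial growth factors (VEGFs). In blood vessels the family is known for patterning of growing vessels and for effects on endothelial adhesion and permeability.

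Values are FPKM, fragments per kilobase of gene length scaled to the library total, so levels can be compared between genes. Reads assigned to genes, recovered from the steps of the FPKM values, numbered 19889910 to 25914325 per library. At these depths 3 reads correspond to 0.00899 to 0.0471 FPKM, depending on the library and the length of the member. The intended tissue was evident from 10 smooth muscle markers, whose summed level was 14354 to 15050 FPKM in wild-type libraries, with 12067 to 14181 FPKM after deletion, and from 12 endothelial markers, with 374 to 542 and 425 to 517 FPKM. Jag1 stood at 9.86, 10.6 and 16.9 FPKM in wild-type, compared with 13.5, 9.43 and 19.6 FPKM in EC-Jag1KO replicates 1 to 3. The groups overlapped, and the value covers the whole gene in all cells of the wall, so that Jag1 does not check the labels. In whole tissue, fewer cells of a type and less RNA per cell cannot be told apart. Wild-type replicate 3 and EC-Jag1KO replicate 3 had the expression of female animals, with Xist at 26.9 and 40.7 FPKM against 0.0291 to 0.0738 FPKM in the other 4 libraries. EC-Jag1KO replicate 3 also stood apart on the first principal component of all tested genes, at 33.8 against -14.2 to 0.04.

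The limma test used log2(FPKM + 1) for genes whose mean over the libraries reached 1 FPKM, and 24 of the 31 members passed this filter (15 semaphorins, 7 plexins and both neuropilins). No member passed an adjusted p of 0.05 over all genes (Benjamini-Hochberg), where the share of all 12165 tested genes was 0%. The smallest adjusted p among the members was 0.549. At an unadjusted p under 0.05 there was 1 member on the higher side, Sema3d, where 4.25% of all tested genes were called in that direction, and 0 of the 24 on the lower side, where 3.46% of all tested genes were. With limma voom on recovered reads those counts were 2 and 1. The median log2 fold change of the tested members was 0.065, beside -0.00022 over all tested genes, with 13 members above 0 and 11 below, where 50.0% of all tested genes were above 0. Nominal differences in the family were therefore about as frequent as in the rest of the table.

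**Figure D1:**
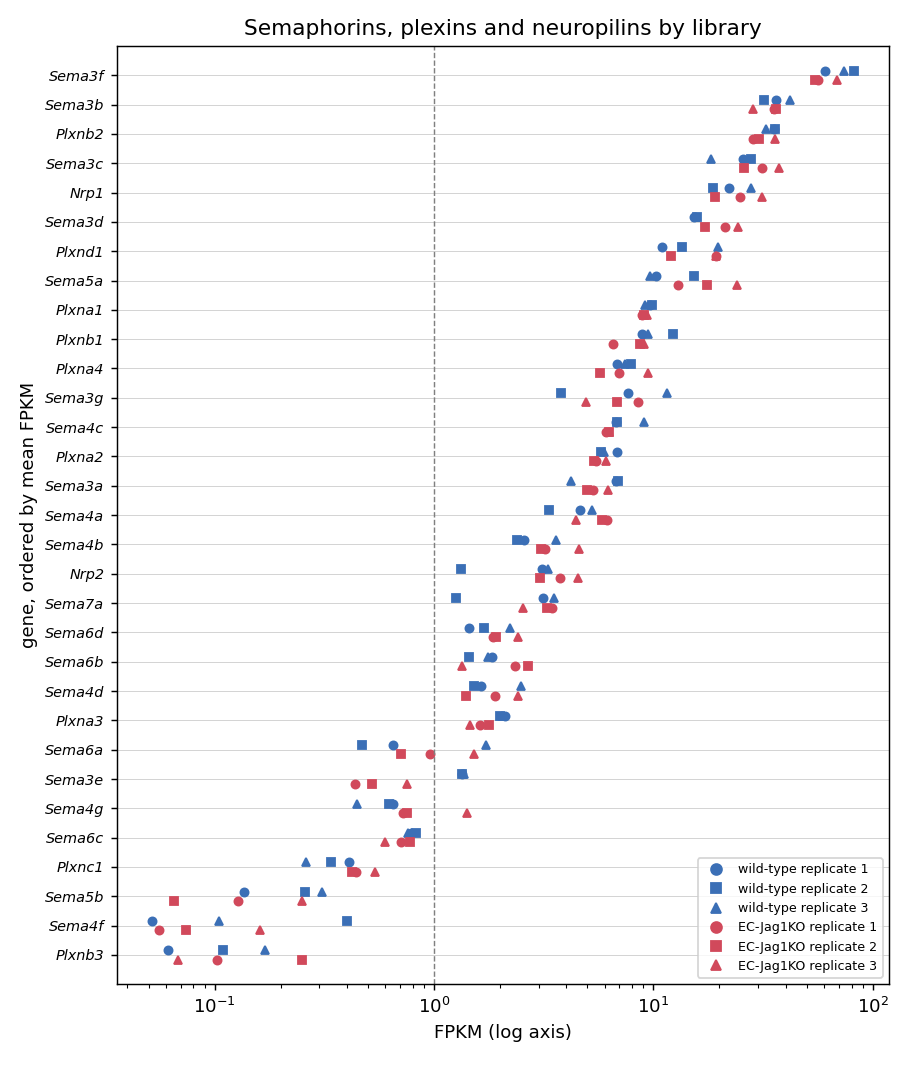
FPKM of all 31 members in each of the 6 libraries on a log axis, with genes ordered by mean FPKM, wild-type libraries in blue, EC-Jag1KO libraries in red and 1 symbol per replicate number. The dashed line marks 1 FPKM, and Sema3e, whose mean is just below it, shows 3 tightly grouped wild-type points at 1.33 to 1.37 and 3 separate EC-Jag1KO points at 0.435 to 0.753.

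The 2 members that stood out most lie near each other on chromosome 5, and their promoters are printed first because their values lay in opposite directions. Sema3d, Sema3a, Sema3e and Sema3c lie in this order on the plus strand of chromosome 5 in mm10, between 12383166 and 17730268. The gaps between them are 0.81, 0.42 and 3.32 Mb. The promoter of Sema5a, on chromosome 15, is shown with them because Sema5a had the largest log2 fold change of the tested members. Each window is from RefSeq (build GRCm38.p6, plus strand), runs from 250 bases before to 50 bases after the annotated start, and is printed 5′ to 3′ with base 251 as the first transcribed base. The windows are chr5:12382916-12383215 for Sema3d, chr5:14025026-14025325 for Sema3e and chr15:32244563-32244862 for Sema5a. Capitals mark TGGGAA, the core letters of the motif bound by RBPJ, the DNA-binding factor of the Notch pathway, and GGGCGG, the GC box, each on either strand, with neighbouring or overlapping copies running together.
Sema3d: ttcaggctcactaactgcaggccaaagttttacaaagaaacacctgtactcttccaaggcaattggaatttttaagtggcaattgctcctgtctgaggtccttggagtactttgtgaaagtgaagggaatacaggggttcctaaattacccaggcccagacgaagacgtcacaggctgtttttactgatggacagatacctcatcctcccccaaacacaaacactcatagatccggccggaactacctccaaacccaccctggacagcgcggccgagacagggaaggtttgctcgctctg
Sema3e: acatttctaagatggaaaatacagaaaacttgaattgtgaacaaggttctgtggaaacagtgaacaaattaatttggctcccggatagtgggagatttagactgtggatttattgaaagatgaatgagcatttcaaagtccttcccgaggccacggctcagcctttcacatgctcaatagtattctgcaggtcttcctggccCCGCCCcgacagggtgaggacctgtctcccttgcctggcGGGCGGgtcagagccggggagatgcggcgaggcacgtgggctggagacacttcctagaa
Sema5a: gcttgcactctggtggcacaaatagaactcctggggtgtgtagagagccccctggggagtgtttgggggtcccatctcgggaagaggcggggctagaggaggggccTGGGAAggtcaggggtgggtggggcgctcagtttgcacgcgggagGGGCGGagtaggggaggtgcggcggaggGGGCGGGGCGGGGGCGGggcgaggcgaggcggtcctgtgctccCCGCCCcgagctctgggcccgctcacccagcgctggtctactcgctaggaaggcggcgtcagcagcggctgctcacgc
The Sema3d window holds neither motif, the Sema3e window holds the GC box at 2 places, and the Sema5a window holds TGGGAA once, starting at base 107, and the GC box at 5 places.

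Promoters were present for 26 of the 31 members, with 37 windows in all, since some genes have several starts. Sema3b, Sema3f, Sema6a, Plxna1 and Plxna4 had no entry. TGGGAA was found in 8 of the 37 windows (21.6%), in Plxnb1, Plxnb2, Plxnc1, Sema3g, Sema4a, Sema4d, Sema5a and Sema6d, beside 24.1% of the 19311 windows of protein-coding genes and 25.6% of all 32851 windows. GGGCGG was found in 73.0% of the member windows, beside 47.7% for protein-coding genes. Member windows also had a higher median GC content, 63.7% against 57.0%. TATAAA was found in 0 of the 37 member windows and in 12.1% of those of protein-coding genes. The GC box and TATAAA were chosen for the search after the data were seen, and a match describes letters only.

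Among the secreted class 3 ligands, Sema3e lay lower in EC-Jag1KO aorta by more than the spread between replicates. Its product binds plexin D1 directly, without a neuropilin, and is known for repelling growing vessels in mouse embryos. Sema3e stood at 1.33, 1.34 and 1.37 FPKM in wild-type replicates 1 to 3 and at 0.435, 0.523 and 0.753 FPKM in EC-Jag1KO replicates 1 to 3. The values rest on 215, 230 and 241 reads against 65, 71 and 133 reads. Every EC-Jag1KO library lay below every wild-type library, and the EC-Jag1KO mean of 0.570 ± 0.164 FPKM was 42.2% of the wild-type mean of 1.35 ± 0.02 FPKM (SD, n = 3 each). Its mean over the 6 libraries was just under the filter, at 0.960 FPKM, so that Sema3e was not among the 24 tested members. Sema6a, on 81 to 303 reads, lay just inside the filter.

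With the filter removed, limma tested 22822 genes and gave Sema3e a log2 fold change of -0.59 (SE 0.12, 95% interval -0.87 to -0.30), an unadjusted p of 0.0021 and an adjusted p of 0.524. In that fit 1 of 31 members was lower at an unadjusted p under 0.05, beside 2.70% of all genes, and 1 was higher, beside 3.59%. Groups that did not overlap were found for 3 of 31 members on the lower side, beside 4.94% of all genes, and for 3 on the higher side, beside 6.01%. The pseudocount of 1 is close to the level of Sema3e and compresses the change, which was -1.14 with a pseudocount of 0.1 and -1.25 with voom on recovered reads (limma, unadjusted p 0.0066 and 0.00052). Leaving out each library in turn gave log2 fold changes of -0.67 to -0.52 with unadjusted p of 0.0010 to 0.0080, and no alternative brought the adjusted p under 0.263. A two-sided exact permutation test on Sema3e gave p = 0.1, the smallest that 3 against 3 allows. Any gene whose groups do not overlap gives this value, so the test adds nothing to the lack of overlap. The antisense gene Gm4128, which overlaps Sema3e, was listed at 0 FPKM in both group means. Summed smooth muscle markers moved the same way, with a lower mean for 7 of 10 and no marker at 0. Groups did not overlap on the lower side for 5 of 10, beside 6.73% of all genes tested with the filter. On the higher side they did not overlap for 1, Myocd, beside 6.84%. The smooth muscle sum in EC-Jag1KO replicates 1 to 3 was 13360, 14180 and 12070 FPKM, lowest in replicate 3, where Sema3e was highest. Erythroid markers, which reflect blood in the tissue, were also lower, with a lower mean for 5 of 6 markers. Of these, 4 were lower at an unadjusted p under 0.05 in limma, beside 3.46% of all genes tested with the filter. The median log2 fold change was -1.39 over the 5 tested. The erythroid sum was 1519, 740.5 and 1227 FPKM in wild-type and 190.5, 443.6 and 918.8 FPKM in EC-Jag1KO replicates 1 to 3. These groups overlapped, and no marker was at 0. EC-Jag1KO replicates were in the same order as for Sema3e, whereas in wild-type the sum was lowest in replicate 2 and Sema3e in replicate 1. The part of either marker list in the Sema3e values was not tested.

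Sema3d lay in the other direction. Its product is a secreted semaphorin known for patterning of the pulmonary veins in mice. Sema3d stood at 15.3, 15.8 and 15.6 FPKM in wild-type replicates 1 to 3 and at 21.1, 17.2 and 24.4 FPKM in EC-Jag1KO replicates 1 to 3. The groups did not overlap, with EC-Jag1KO replicate 2 nearest to wild-type, and the means were 15.6 ± 0.3 and 20.9 ± 3.6 FPKM (SD, n = 3 each). The log2 fold change in limma was 0.39 (SE 0.13, 95% interval 0.082 to 0.69), with an unadjusted p of 0.020 and an adjusted p of 0.549. With replicate 1 of wild-type or of EC-Jag1KO left out the log2 fold change was still 0.38 or 0.37, on fewer libraries, with an unadjusted p of 0.057 in both cases. Without both female libraries it was 0.28 (0.073). Dropping EC-Jag1KO replicate 3 gave a log2 fold change of 0.28 (unadjusted p 0.045). Markers of mesothelium, which covers the outside of organs in body cavities, were higher in the same libraries. All 6 markers had a mean under 1 FPKM over the libraries. Each had a higher mean in EC-Jag1KO aorta, and 3 had groups that did not overlap, beside 6.01% of all genes without the filter. Their sum was 0.400 to 0.530 FPKM in wild-type and 1.34, 2.51 and 1.54 FPKM in EC-Jag1KO replicates 1 to 3, so that within EC-Jag1KO it was highest in replicate 2, where Sema3d was lowest, and Upk3b, Lrrn4 and Upk1b were at 0 in some libraries. Of 10 adventitial fibroblast markers, 7 had a higher and 3 a lower mean in EC-Jag1KO aorta. Groups did not overlap for 2 on the higher side and 1 on the lower, beside 6.84% and 6.73% of all tested genes. Of the 2, Pdgfra had the EC-Jag1KO replicate order of Sema3d, at 19.2, 17.7 and 21.7 FPKM, and Lum did not. The fibroblast sum was 3074, 3439 and 3163 FPKM in EC-Jag1KO replicates 1 to 3, also highest in replicate 2. The part of either list in the Sema3d values was not tested.

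Sema3c and Sema3a, the other genes of this stretch of chromosome 5, had overlapping groups. Sema3c, whose product is needed for septation of the cardiac outflow tract in mice, stood at 25.5, 27.7 and 18.3 FPKM in wild-type, compared with 31.2, 25.8 and 37.2 FPKM in EC-Jag1KO replicates 1 to 3. Its log2 fold change in limma was 0.39 (SE 0.19, unadjusted p 0.075), which was 0.22 or 0.26 when replicate 3 of wild-type or of EC-Jag1KO was left out and 0.090 when both were. Sema3a, the prototypical collapsin that signals through Nrp1 and A-type plexins, had 5.95 ± 1.5 against 5.49 ± 0.63 FPKM. The 4 neighbours thus differed in level by more than an order of magnitude, and only Sema3d and Sema3e had groups that did not overlap.

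**Figure D2:**
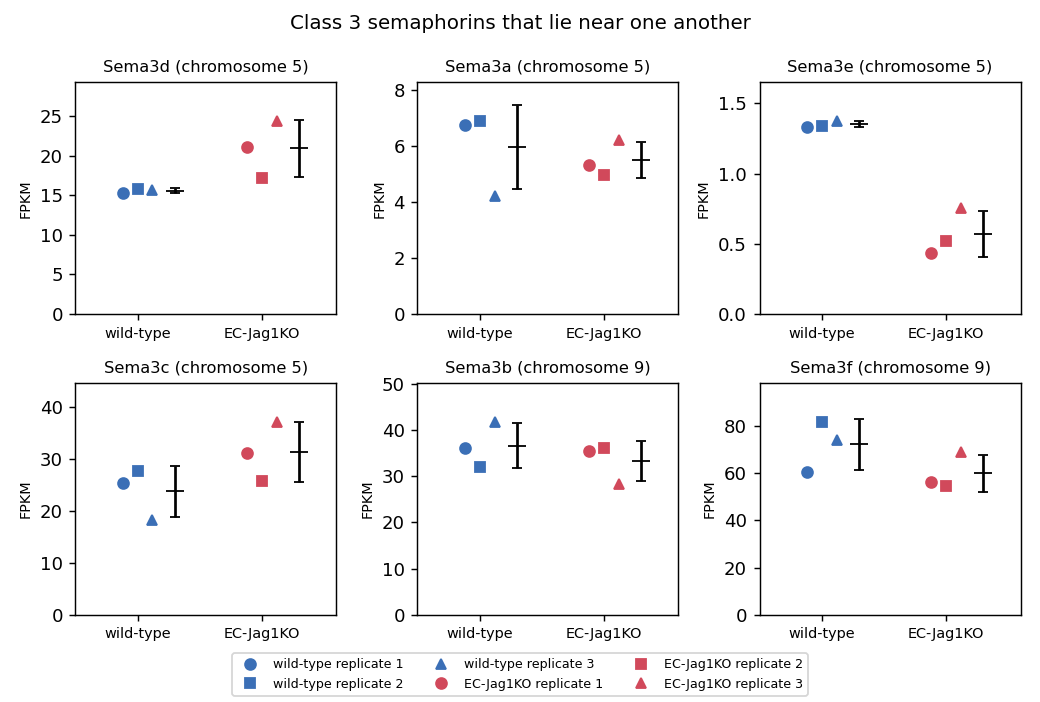
FPKM (linear axis from 0) of 6 class 3 semaphorins in each library, with the mean and SD of each group as a black bar beside its points. Wild-type points of Sema3d and Sema3e lie close together, EC-Jag1KO points lie above them for Sema3d and below them for Sema3e, and the groups of the other 4 genes overlap.

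The most abundant members were 2 further class 3 ligands, which lie 72.3 kb apart on the minus strand of chromosome 9. Sema3f, which signals mainly through Nrp2, stood at 60.7, 81.8 and 74.0 FPKM in wild-type, compared with 56.1, 54.7 and 68.8 FPKM in EC-Jag1KO replicates 1 to 3. These groups overlapped, and the log2 fold change was -0.26 (SE 0.15, unadjusted p 0.11 in limma). Without EC-Jag1KO replicate 3 it was -0.37 (unadjusted p 0.037), and without wild-type replicate 1 it was -0.38 (0.040). Sema3b, which like Sema3f lies in a region lost in many human lung cancers, had 36.0, 32.0 and 41.8 FPKM against 35.4, 36.1 and 28.3 FPKM. Its log2 fold change of -0.13 (SE 0.14, unadjusted p 0.37) turned to 0.072 without both female libraries. Sema3g, known from arterial endothelium, was the most variable tested class 3 member, with 7.68, 3.77 and 11.5 FPKM against 8.53, 6.82 and 4.95 FPKM.

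Class 3 ligands made up most of the semaphorin messenger per unit length. Their share of the summed semaphorin FPKM was 81.6, 82.3 and 80.3% in wild-type and 79.7, 76.7 and 76.6% in EC-Jag1KO replicates 1 to 3. Sema3f alone held 32.3, 39.8 and 35.7% against 28.3, 28.7 and 30.9%, and Sema3d held 7.53 to 8.14% against 9.04 to 10.9%. Sema3b held 15.6 to 20.1% against 12.7 to 19.0%, and Sema3c held 8.79 to 13.6% against 13.5 to 16.7%. The groups do not overlap for the shares of class 3, Sema3f and Sema3d and overlap for those of Sema3b and Sema3c, all of which are sums or parts of values already given and were not tested. The summed level of all semaphorins was 200 ± 11 FPKM in wild-type, compared with 204 ± 17 FPKM in EC-Jag1KO aortas (SD, n = 3 each), a difference within the spread between replicates.

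Of the membrane-bound semaphorins, Sema5a had the highest level and the largest log2 fold change of the tested members. Sema5a encodes a transmembrane ligand with thrombospondin repeats, and it is described here although the naming rule did not pick it. It stood at 10.3, 15.3 and 9.67 FPKM in wild-type, compared with 12.9, 17.5 and 24.1 FPKM in EC-Jag1KO replicates 1 to 3. The groups overlapped, since wild-type replicate 2 lay above EC-Jag1KO replicate 1, and the log2 fold change was 0.57 (SE 0.25, 95% interval -0.0042 to 1.1, unadjusted p 0.051 in limma). It was above 0 in 19 of 19 alternatives, at 0.24 to 0.78, with an unadjusted p under 0.05 in 7 of them and an adjusted p of 0.423 to 0.967. The lowest value was without both female libraries (unadjusted p 0.33), and without EC-Jag1KO replicate 3 it was 0.36 (0.16). Its paralogue Sema5b was near the limit of counting, with 0.234 ± 0.089 against 0.147 ± 0.094 FPKM on 6 to 37 reads.

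Class 4 members are transmembrane ligands, and 4 of 6 passed the filter. Sema4c, a ligand of plexin B2, was the class 4 member on the lower side with groups that did not overlap, at 6.78, 6.80 and 9.04 FPKM in wild-type, compared with 6.05, 6.30 and 6.29 FPKM in EC-Jag1KO replicates 1 to 3. The gap between the groups was small beside the spread within wild-type, and the log2 fold change was -0.23 (SE 0.12, unadjusted p 0.10 in limma). Sema4a had 4.40 ± 0.96 against 5.46 ± 0.88 FPKM and Sema4b 2.86 ± 0.65 against 3.62 ± 0.85 FPKM. Sema4d, also known as CD100, the ligand of plexin B1 made by many leukocytes, had 1.88 ± 0.52 against 1.91 ± 0.51 FPKM. Under the filter, Sema4g stood at 0.651, 0.621 and 0.444 FPKM in wild-type, compared with 0.722, 0.751 and 1.41 FPKM in EC-Jag1KO libraries, groups that did not overlap but in which EC-Jag1KO replicate 3 lay far above the other 2. Its log2 fold change without the filter was 0.30 (SE 0.16, unadjusted p 0.10), 0.15 without EC-Jag1KO replicate 3 and 0.086 without both female libraries. Sema4f had at most 41 reads in any library.

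Class 6 and class 7 members were low, and all had overlapping groups. Sema6d stood at 1.78 ± 0.40 against 2.06 ± 0.30 FPKM, Sema6b at 1.68 ± 0.21 against 2.11 ± 0.70 FPKM and Sema6a at 0.946 ± 0.676 against 1.06 ± 0.42 FPKM (SD, n = 3 each). Sema7a, a membrane-anchored ligand that binds plexin C1 and a beta-1 integrin, had 3.15, 1.26 and 3.51 FPKM in wild-type, compared with 3.46, 3.26 and 2.55 FPKM in EC-Jag1KO replicates 1 to 3, with wild-type replicate 2 lowest. Sema6c, under the filter, had 0.793 ± 0.032 against 0.695 ± 0.091 FPKM. Another protein-coding entry, SEMA6C, shares 8943 bases with Sema6c on the same strand and was listed at 0 FPKM in both group means. How reads in shared bases were assigned is not given, and the part of this overlap in the Sema6c level was not tested.

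Among the receptors, 6 of the 7 tested plexins had a log2 fold change below 0, and none passed an unadjusted p of 0.05. Over all tested genes 50.0% were above 0. Plxnc1 and Plxnb3, under the filter, were above 0 in the fit without it, at 0.14 and 0.033. Plxnb2, a widely expressed plexin of class 4 ligands, was the most abundant at 35.5, 35.7 and 32.6 FPKM in wild-type, compared with 28.4, 30.4 and 35.7 FPKM in EC-Jag1KO replicates 1 to 3. EC-Jag1KO replicate 3 lay at the wild-type level, and the log2 fold change of -0.14 (SE 0.11, unadjusted p 0.26 in limma) was -0.23 without that library (unadjusted p 0.045) and -0.27 without both female libraries (0.032). Plxnb1, the receptor of Sema4d, had 10.2 ± 1.8 against 8.08 ± 1.36 FPKM, with the lowest log2 fold change of the tested plexins, -0.30 (unadjusted p 0.098).

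A-type plexins, the signalling partners of neuropilins, were at similar levels in both groups. Plxna1 had 9.61, 9.84 and 9.11 FPKM in wild-type, compared with 8.87, 9.05 and 9.36 FPKM in EC-Jag1KO replicates 1 to 3, a log2 fold change of -0.059 (95% interval -0.26 to 0.14). Plxna2 had 6.18 ± 0.56 against 5.64 ± 0.37 FPKM and Plxna4 7.40 ± 0.53 against 7.36 ± 1.88 FPKM. Plxna3, an X-linked gene, was the lowest of the 4 and the tested plexin whose groups did not overlap, at 2.10, 1.99 and 2.04 FPKM against 1.62, 1.79 and 1.45 FPKM. Its log2 fold change was -0.22 (SE 0.12, unadjusted p 0.12 in limma), and -0.17 without both female libraries. Together with Sema4c this made 2 of 24 tested members without overlap on the lower side, where 6.73% of all tested genes were, and Sema3d made 1 on the higher side, where 6.84% were.

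Plxnd1, the receptor of Sema3e and a plexin of the endothelium, stood at 10.9, 13.4 and 19.8 FPKM in wild-type, compared with 19.3, 11.97 and 19.3 FPKM in EC-Jag1KO replicates 1 to 3. The groups overlapped completely in range, and the log2 fold change was 0.19 (SE 0.25, 95% interval -0.39 to 0.78, unadjusted p 0.46 in limma). The 3 libraries with the highest Plxnd1, wild-type replicate 3 and EC-Jag1KO replicates 1 and 3, were those with the highest sum of the 12 endothelial markers, 542, 517 and 504 FPKM against 374, 398 and 425 FPKM in the others. Pecam1 alone gave 172 to 230 FPKM of that sum. Of the 12 markers, 7 had a higher and 5 a lower mean in EC-Jag1KO aorta. Pecam1 and Vwf were highest in the same 3 libraries, whereas Cldn5 was lowest in EC-Jag1KO replicate 3, at 11.4 FPKM. The part of endothelial RNA content in the Plxnd1 values was not tested. Plxnc1, the receptor of Sema7a and under the filter, had 0.408, 0.339 and 0.260 FPKM against 0.441, 0.421 and 0.537 FPKM, without overlap, with a log2 fold change of 0.14 (unadjusted p 0.12 without the filter). Plxnb3 had 9 to 31 reads per library.

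**Figure D3:**
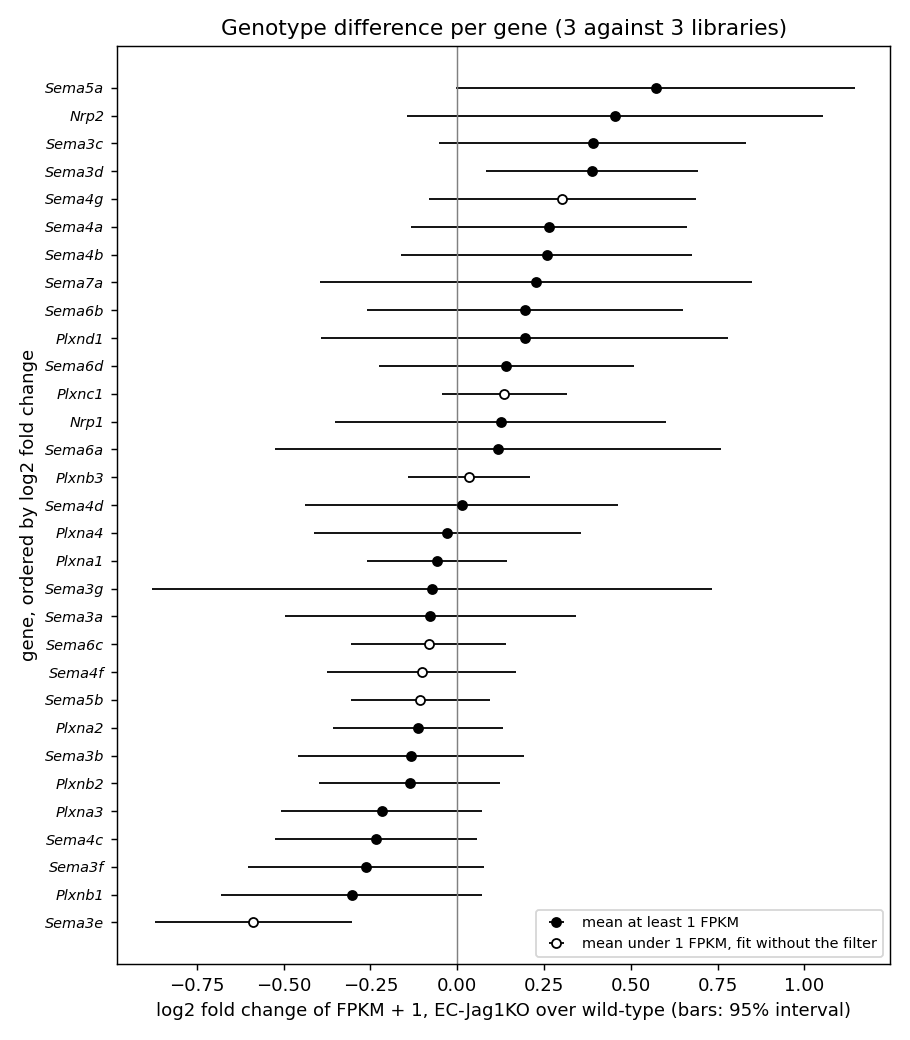
Log2 fold change of FPKM + 1, EC-Jag1KO over wild-type, for all 31 members, with bars for the 95% interval in limma. Filled points are the 24 tested members and open points the 7 members under the filter, taken from the fit without it, and the intervals of Sema3d and Sema3e are those that leave out 0.

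Both neuropilins had overlapping groups. Nrp1, the partner of Sema3a and of VEGF-A, stood at 22.0, 18.6 and 27.7 FPKM in wild-type, compared with 24.9, 19.1 and 31.3 FPKM in EC-Jag1KO replicates 1 to 3, so that replicate 3 was the highest of each group. The log2 fold change of 0.13 (95% interval -0.35 to 0.60) was -0.0041 when wild-type replicate 2 was left out and -0.041 when EC-Jag1KO replicate 3 was. Nrp2, the partner of Sema3f and of VEGF-C, stood at 3.12, 1.32 and 3.32 FPKM against 3.76, 3.04 and 4.53 FPKM. Wild-type replicate 2 was far below the other 5 libraries, and the log2 fold change of 0.46 (SE 0.26, unadjusted p 0.12 in limma) was 0.17 without it. The ratio of Nrp1 to Nrp2 was 14.1 in that library and 6.30 to 8.34 in the others.

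The tested members whose 3 highest libraries were the same as those of the endothelial marker sum were Nrp1, Nrp2, Plxnd1, Sema4b, Sema4d and Sema6a, 6 of 24 beside 8.69% of all tested genes. Sema3g was not among them. The same count for the libraries highest in adipocyte markers was 2 of 24 (beside 9.03% of all tested genes), for smooth muscle markers 2 (6.73%), for adventitial fibroblast markers 1 (2.27%) and for macrophage markers 0 (2.19%). The members share each library's RNA, and these counts are a description. Of the 3 libraries highest in the endothelial marker sum, wild-type replicate 3 and EC-Jag1KO replicate 3 are the female libraries, so that this sum and sex are mixed here.

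**Figure D4:**
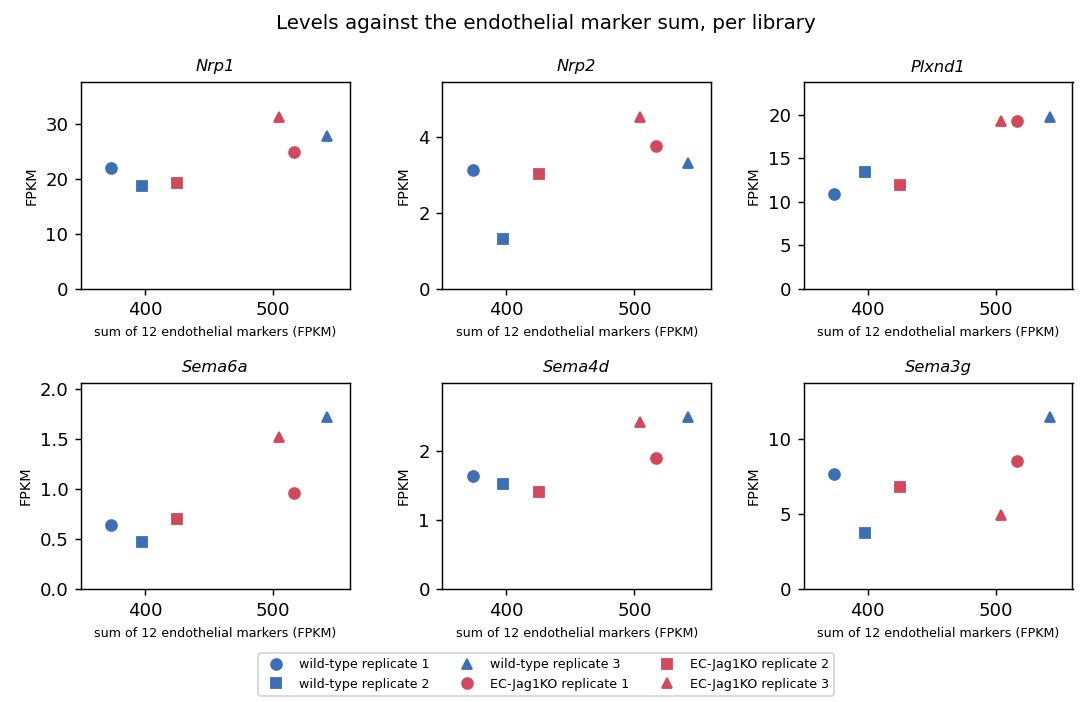
FPKM of 6 members (y axes from 0) against the summed FPKM of 12 endothelial markers in each library, with group and replicate as in the legend. Nrp1, Nrp2, Plxnd1, Sema6a and Sema4d are highest in the 3 libraries with sums of 504 to 542, and Sema3g is not.

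Genes that act with the family were examined as lists of partners, VEGF genes and other guidance genes. Of 45 intracellular partners, effectors and co-receptors of plexins and neuropilins, 38 were tested, 0 passed over all genes, 0 were higher and 3 were lower at an unadjusted p under 0.05 in limma, and the median log2 fold change was -0.019 beside -0.00022 over all tested genes. Among the 3 were Sh3bp1, whose product conveys Sema3E signals from plexin D1 in cultured cells, at 7.66 ± 0.43 against 6.23 ± 0.61 FPKM, and L1cam, an adhesion molecule of the Sema3a receptor complex, at 2.48 ± 0.43 against 1.69 ± 0.27 FPKM (SD, n = 3 each). Their unadjusted p were 0.037 and 0.040 and their adjusted p 0.623 and 0.629, and each had groups that did not overlap. Of the 38 tested partners, 4 had groups without overlap on the lower side and 1 on the higher, beside 6.73% and 6.84% of all tested genes. The share of 3 in 38 stands beside the 3.46% of all tested genes called lower.

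Of 8 VEGF ligand and receptor genes, which share the neuropilins, none passed an unadjusted p of 0.05. Flt1, a VEGF receptor, had 8.97 ± 2.17 against 7.18 ± 0.51 FPKM, and Kdr, the main signalling VEGF receptor, had 2.09 ± 1.85 against 3.29 ± 0.85 FPKM, with 0.356 FPKM in wild-type replicate 2 and 1.88 to 4.05 FPKM in the other libraries. The median log2 fold change of the list was 0.035. Of 37 genes of the Slit, Robo, netrin, Unc5, Rgm and ephrin families, 25 were tested, with a median log2 fold change of -0.065. Unc5d, a netrin receptor gene, was higher at an unadjusted p of 0.040 in limma, with 0.768 ± 0.075 against 1.46 ± 0.46 FPKM. Its wild-type mean lay under the filter of 1 FPKM, so that Unc5d was tested only through its EC-Jag1KO values. Rgma, a repulsive guidance molecule that binds neogenin, was lower at an unadjusted p of 0.049, with 18.1 ± 0.1 against 15.6 ± 0.9 FPKM. Neither passed over all genes, with adjusted p of 0.629 and 0.645 in limma. At an unadjusted p under 0.05 the list thus had 1 of 25 higher and 1 lower, beside 4.25% and 3.46% of all tested genes.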

How the data were processed

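RNA from 6 whole-aorta libraries was measured by RNA sequencing. The authors deposited 1 table of FPKM values with gene coordinates and lengths, 1 column per sample. The submitters' processing notes list STAR, HTSeq, edgeR and the build mm10, without roles or versions. Annotation release, strand setting and filters are not given there. Since the strand setting is unknown, reads of overlapping antisense genes cannot be told apart, and Sema6c overlaps SEMA6C on its own strand. Of the members' overlapping genes in the table, the highest group mean was 0.390 FPKM. How reads in shared bases were assigned is not given, so low values there do not show that no member lost reads. Per the labels' protocols, total RNA was purified on spin columns.

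Value times length sums to 1 total in every library, and 211650 of 211650 values (100%) lie within 0.05 of a whole number of reads, which gave the depth. Since the unit is FPKM, the main test was limma 3.58.1 in R 4.3.3 on log2(FPKM + 1), genotype only, with an intensity trend, two-sided, where the gene's mean reached 1 FPKM. Fold changes on that scale understate low genes. Jag1 had a log2 fold change of 0.16 (SE 0.28, unadjusted p 0.59). Chi-square per degree of freedom between libraries was 26.3 to 79.7, so no library was entered again. The fit was tested on simulated data. Figures used matplotlib 3.10.9 in Python 3.11.15.

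Members, lists, alternatives and the naming rule were chosen with earlier results of these data known. The rule gives every member's values in full where the unadjusted p was under 0.05 or the groups did not overlap, for the neuropilins, and for the 3 most abundant semaphorins and plexins, and in each list up to 6 genes with an unadjusted p under 0.05, otherwise the 2 of smallest p; 1 partner gene that the rule picks is not reported here. Of 199 listed symbols 197 were found in the table. Alternatives covered the pseudocount, filter, scaling, variance model, replicate block, adipocyte and sex covariates and libraries left out; voom on recovered reads, and the alternatives for Sema5a and for genes under the filter, were added after the data were seen. A count test in edgeR on recovered reads was planned and not run, since the deposited unit is FPKM. Promoters came from RefSeq (GRCm38.p6), matched by symbol.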

Additional observations from a re-analysis of the deposited data

How the results depend on the processing

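No alternative brought a member past an adjusted p of 0.05. The count of members higher at an unadjusted p under 0.05, 1 as reported, was 2 with sex as a covariate, without both female libraries and with voom on recovered reads (with or without the filter), 3 with the adipocyte covariate, and 0 to 3 with single libraries left out. The count lower, 0 as reported, was 1 without the filter (Sema3e), with the adipocyte covariate (Sema3g) and with voom (Plxna3, or Sema3e without the filter), 2 without both female libraries (Plxnb2, Sema3a), and 0 to 2 with single libraries left out. Both counts are small, and the genes behind them changed with the setting. The members' median log2 fold change was -0.073 over the 15 members with a mean of at least 5 FPKM. Their log2 fold changes are those of the main fit, so that only the set of members differs. The median was -0.086 when EC-Jag1KO replicate 3 and wild-type replicate 2 were both left out. With single libraries left out it was -0.031 to 0.22. The cause of the shifts with libraries left out was not tested. Nrp1 ranged from -0.041 to 0.30 with single libraries left out, turned to -0.0041 when wild-type replicate 2 was dropped, and was -0.17 when EC-Jag1KO replicate 3 was dropped as well; Sema3b turned to 0.072 without both female libraries. With the replicate block the higher count was 3 (Nrp2, Sema3d, Sema5a). Same-numbered libraries deviated with correlations of 0.055, 0.051 and -0.050, and other pairs with -0.238 to 0.192. These correlations gave no sign of pairing by number, but with 3 libraries per group they cannot settle it. Replicate 3 was the female library in each group. Sema3e kept its direction and an unadjusted p under 0.05 in 12 of 12 alternatives to the fit without the filter. Counting limits Sema4f, Sema5b and Plxnb3. The planned edgeR fit was not run.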

Other observations

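Single libraries held many of the members' extremes. EC-Jag1KO replicate 3 was the highest of the 6 libraries for 8 of the 24 tested members (33.3%), among them Sema3c, Sema3d, Sema5a and both neuropilins, and it was the highest for 25.6% of all tested genes. Wild-type replicate 2 was the lowest for 7 members (29.2%), among them both neuropilins, Sema3g, Sema6a and Sema7a, and for 17.1% of all tested genes. That library also had the lowest sum of 10 adipocyte markers, 566 FPKM against 1058 to 2604 FPKM, and the lowest sum of 7 lymphatic markers, 18.6 FPKM against 23.9 to 35.9 FPKM.

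Nrp1, Nrp2, Sema4b, Sema4d, Sema6a and Sema6d were highest in the female library of each genotype, 6 of 24 tested members (25.0%) beside 15.3% of all tested genes. No tested member was lowest in both female libraries, beside 10.9% of all tested genes. The values of Sema6a were 1.72 and 1.52 FPKM in the female libraries and 0.470 to 0.959 FPKM in the other 4. With 1 female library per group, sex cannot be told apart from other differences of these libraries. Both were also among the 3 libraries with the highest endothelial marker sum. Nrp1, Nrp2, Sema4b, Sema4d and Sema6a were named for that sum as well.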
